A study of Homo sapiens with 20 samples.

Results

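The comparison described here is cisplatin added to TM for 12 h in MDA-MB-231 cells: 3 arrays of cells given cisplatin and TM together (Cis/TM 12 h) were set against 2 arrays of cells given TM alone (TM 12 h), 5 of the 20 arrays of the series. The arrays were chosen by their titles, and 1 transcript cluster, that of highest mean over all 20 arrays, stood for each of the 18417 genes with a single symbol. MDA-MB-231 is an established human cell line of triple-negative breast cancer. Cis/TM 12 h cells received 36 µM cisplatin and 10 µM TM (ammonium tetrathiomolybdate, a copper chelator) for 12 h, and TM 12 h cells received 10 µM TM for 12 h, so that both groups carried TM and differed in cisplatin. For comparison, Cis/TM 24 h and TM 24 h (3 arrays each) had the same doses for 24 h, Cis 12 h (3 arrays) had 36 µM cisplatin alone, and Control (3 arrays) had neither drug and no stated time. Nothing in the labels or methods says that the arrays of a group came from separate cultures on separate days, so the p-values measure the spread between these arrays, which may be technical. The study set TM beside cisplatin to ask whether copper chelation changes how resistant breast cancer cells respond to platinum.

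Cisplatin forms platinum adducts and crosslinks in DNA, which stall both replication forks and RNA polymerase II and start the damage response. A gene's full span, introns included, has to be transcribed before a finished mRNA appears, so a block on the template is met more often in a long gene than in a short one. TM binds copper, a metal that cells take up through CTR1 (SLC31A1) and export through the ATPases ATP7A and ATP7B, which are also linked to platinum transport.

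The 5 arrays were alike in scale: their medians over genes lay between 5.80 and 5.87 on the log2 RMA scale and their standard deviations between 2.13 and 2.18. Pearson's r over genes was 0.9948 to 0.9970 within Cis/TM 12 h and 0.9969 between both TM 12 h arrays, against 0.9755 to 0.9779 between the groups. Markers expected high in MDA-MB-231 were high, whereas the luminal markers were not low as a whole. The 14 genes expected high had a median level of 10.78 in Cis/TM 12 h and 10.70 in TM 12 h. Of these 14, 0 lay under the array median in TM 12 h. In Cis/TM 12 h 1 of them was called higher (LGALS1) and 2 lower (ZEB1 and CAV1). VIM (vimentin) had a mean of 11.25 in Cis/TM 12 h and 11.24 in TM 12 h, and CD44 had 11.58 in Cis/TM 12 h and 11.82 in TM 12 h. ESR1, the oestrogen receptor, and CDH1, E-cadherin, were low in both groups, with 4.05 in Cis/TM 12 h and 4.11 in TM 12 h for ESR1 and 3.59 in Cis/TM 12 h and 3.52 in TM 12 h for CDH1. The 15 luminal markers as a whole had a median level of 6.26 in Cis/TM 12 h and 6.01 in TM 12 h. Over all genes these medians were 5.86 and 5.80, and 6 of the 15 lay under the array median in TM 12 h. Of these 15, 3 were called higher in Cis/TM 12 h, among them AGR2, with means of 6.26 in Cis/TM 12 h and 4.51 in TM 12 h, and TFF1, with 7.08 in Cis/TM 12 h and 6.03 in TM 12 h. Of 21 leukocyte, endothelial and stromal markers, 2 were called higher (CD68 and ACTA2) and PTPRC, the pan-leukocyte marker, was at 2.95 in Cis/TM 12 h and 3.11 in TM 12 h. The part of the luminal markers in the other results was not tested.

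Adding cisplatin to TM changed many genes within 12 h in both directions. A gene was called where limma's adjusted p was under 0.05 and the fold change was over 1.5. By this rule 1218 genes were higher in Cis/TM 12 h than in TM 12 h (6.61% of the 18417 tested) and 1286 were lower (6.98%). Centring the arrays on their medians gave 1018 higher and 1447 lower, and cyclic loess 1036 and 1381. Of the 1218 and 1286 genes called on the deposited values, 314 rose and 524 fell by over 2-fold, and 28 rose and 45 fell by over 4-fold. The 3 Cis/TM 12 h arrays lay wholly above both TM 12 h arrays for 1217 of the 1218 genes called higher, and wholly below for 1286 of the 1286 called lower. The calls were made from the same arrays, so this separation largely follows from the call and is no separate support. The share of all 18417 genes without overlap was not counted. Over all genes, log2 fold changes had a median of 0.02 and standard errors one of 0.151. With 3 arrays against 2, an exact permutation test of a single gene cannot give a one-sided p under 0.1, so each call rests on the spread that the fit shares over all 20 arrays.

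In bulk RNA a lower share of cells with a transcript and less of it per cell cannot be told apart. The largest rise was that of ID2, whose protein binds bHLH factors and keeps them off DNA. Its log2 values were 9.41, 9.32 and 9.41 in Cis/TM 12 h, against 5.24 and 5.28 in TM 12 h, a 17.4-fold difference (log2 fold change 4.12 ± 0.23, SE, limma adjusted p = 3.5e-10). RND1, a small GTPase, had 7.69, 7.59 and 7.63 in Cis/TM 12 h and 4.77 and 4.56 in TM 12 h (log2 fold change 2.97). NR4A2, an orphan nuclear receptor of the immediate early class, had 7.76, 7.42 and 7.63 in Cis/TM 12 h and 4.84 and 4.72 in TM 12 h (2.82). Both genes were under the array median in TM 12 h and above it in Cis/TM 12 h. RGS2, which shortens G protein signalling, had 9.89, 10 and 10.04 in Cis/TM 12 h and 7.31 and 7.18 in TM 12 h (2.73). SAT1, the acetyltransferase that starts polyamine breakdown, had 9.27, 9.61 and 9.35 in Cis/TM 12 h and 6.66 and 6.76 in TM 12 h (2.70). CXCL8, the neutrophil chemokine interleukin 8, had 8.88, 8.65 and 8.83 in Cis/TM 12 h and 6.38 and 6.09 in TM 12 h (2.55). The largest rises and falls were taken only from called genes whose arrays did not overlap between the groups. The 12 largest rises were completed by SLFN5 (2.88), STARD5, a lipid transfer protein (2.77), the arrestin-like ARRDC4 (2.59), MYLIP, a ubiquitin ligase of the LDL receptor (2.54), the protease CTSV (2.48) and TXNIP, which binds and inhibits thioredoxin (2.46).

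The largest falls were in genes of a different build. GPHN, gephyrin, had 5.69, 5.08 and 5.03 in Cis/TM 12 h, against 8.37 and 8.21 in TM 12 h (log2 fold change -3.03 ± 0.15, SE, limma adjusted p = 7.7e-11). KCNQ5, a potassium channel, had 5.12, 5.09 and 5.57 in Cis/TM 12 h and 8.16 and 8.14 in TM 12 h (-2.89). DOCK4, an exchange factor for Rac, had 5.75, 5.73 and 5.98 in Cis/TM 12 h and 8.71 and 8.67 in TM 12 h (-2.87). The formins DIAPH2 (-2.74) and DIAPH3 (-2.55), the secreted guidance factors SEMA3E (-2.72) and SEMA3A (-2.70), the mitochondrial carrier SLC25A21 (-2.87), ARHGAP42 (-2.69), DOCK10 (-2.67), ARL15 (-2.49) and CMSS1 (-2.42) followed. The span of these 12 genes, from first to last base of the RefSeq gene model, ran from 277 kb (DOCK10) to 1230 kb (GPHN), while that of the 12 genes that rose most ran from 2.41 kb (ID2) to 34.8 kb (MYLIP).

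**Figure D1:**
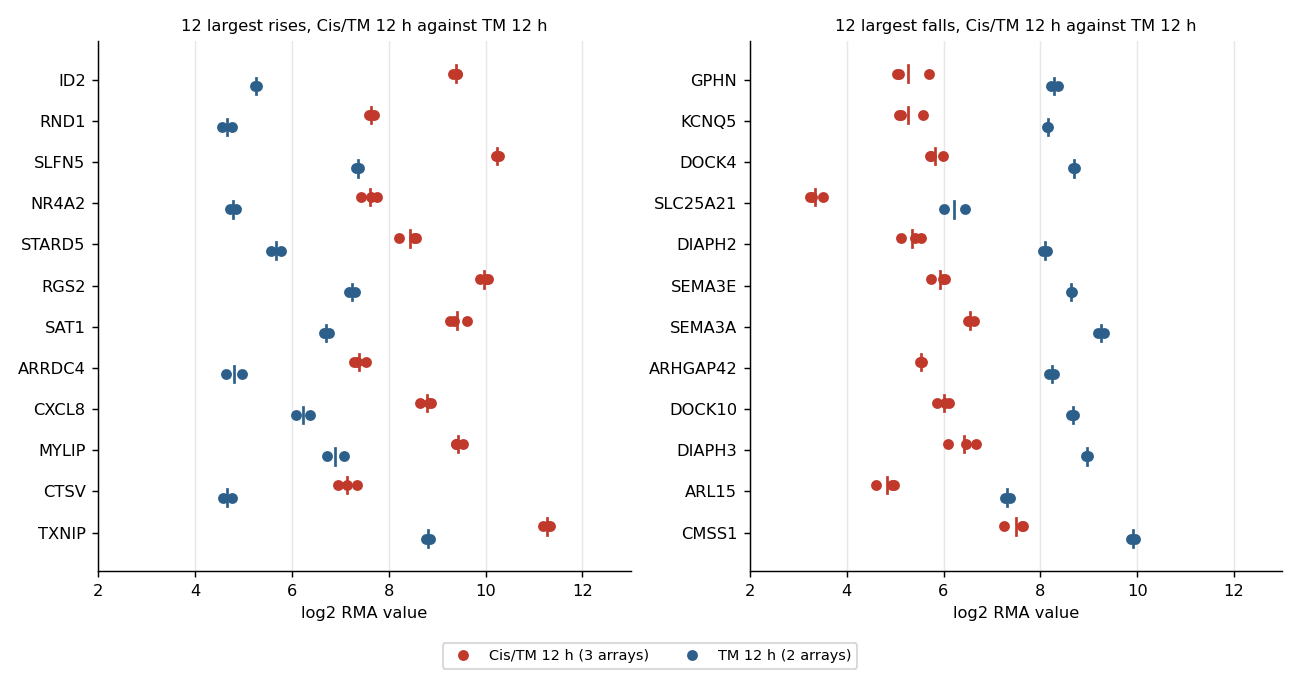
Log2 RMA value (horizontal axis) of the 12 genes that rose most (left panel) and the 12 that fell most (right panel), 1 point per array, with vertical ticks at the group means. In all 24 genes the 3 Cis/TM 12 h arrays lie apart from both TM 12 h arrays, most widely in ID2 (9.32 to 9.41 in Cis/TM 12 h against 5.24 and 5.28 in TM 12 h).

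Gene span set the genes that fell apart from the genes that rose over the whole array. Of the genes called lower, 1284 had a span in RefSeq with a median of 166 kb, whereas 1217 genes called higher had a median of 13.9 kb and all 18386 genes with a span had a median of 24.5 kb. Spans under 10 kb were held by 5243 genes, of which 0.61% fell and 8.79% rose in Cis/TM 12 h. Of 4974 genes of 10 to 30 kb, 0.623% fell and 10.4% rose, and of 5049 genes of 30 to 100 kb, 4.42% fell and 4.44% rose. The balance turned above this: 31.2% of 2391 genes of 100 to 300 kb fell and 0.586% rose, and 34.7% of 729 genes of 300 kb and more fell and 0.137% rose. Each share is read against 6.98% lower and 6.61% higher over all genes. Classes of span were described and not tested, since genes are not replicates.

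Genes of 300 kb and more had a median level of 4.89 in TM 12 h, against 6.48 for those of 100 to 300 kb. Whether a low level limited the share that fell was not tested. Among genes whose mean over all 20 arrays was above the median of 5.84, a restriction chosen after seeing the data, the gradient was steeper. There 0.869% of 2072 genes under 10 kb fell, 0.934% of 2570 genes of 10 to 30 kb, 7.1% of 2988 genes of 30 to 100 kb, 50.6% of 1345 genes of 100 to 300 kb and 79.1% of 225 genes of 300 kb and more. The median log2 fold change in these classes was 0.22, 0.20, -0.04, -0.60 and -1.43. In finer classes, also chosen afterwards, the share that fell was 35.8% at 100 to 150 kb, 63.5% at 150 to 200 kb, 72.8% at 200 to 300 kb, 78.0% at 300 to 500 kb and 81.8% of the 66 genes of 500 kb and more. Spearman's rank correlation between span and log2 fold change was -0.57 over 9200 such genes and -0.37 over 18386, as a description across genes of the same 5 arrays. The rank correlation between the mean level and the log2 fold change was 0.04.

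**Figure D2:**
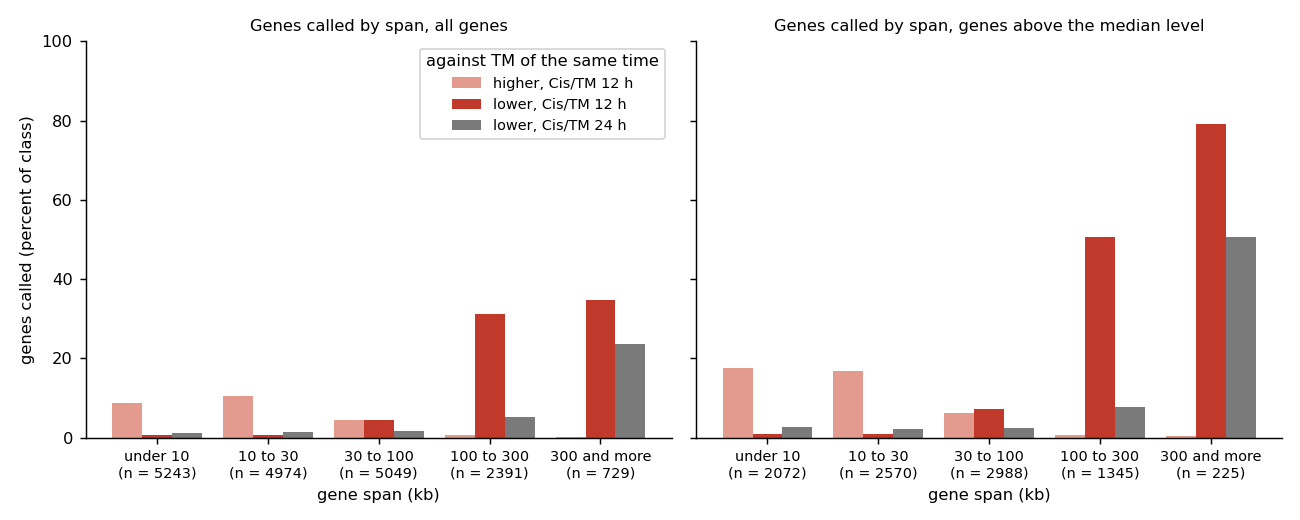
Percent of genes called (vertical axis) in 5 classes of gene span (horizontal axis, kb), for all genes (left) and for genes above the median level (right), with bars for genes higher in Cis/TM 12 h, lower in Cis/TM 12 h and lower in Cis/TM 24 h, each against TM of the same time. At 12 h the share that fell is 0.61% under 10 kb and 34.7% from 300 kb upwards, and in the longest class 23.5% were lower at 24 h.

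Few genes went against their span. Of the genes of 100 kb and more, 998 fell and 15 rose, and these 15 were named after their values were seen. TEX14, a kinase of the intercellular bridge in germ cells (135 kb), rose by 2.0 on the log2 scale and was at 0.07 at 24 h. NEDD9, a focal adhesion scaffold (199 kb), rose by 1.41, FILIP1L (286 kb) by 1.34, SGK1, the serum- and glucocorticoid-regulated kinase (149 kb), by 1.24 and CPE, carboxypeptidase E (120 kb), by 1.21. The others were ENPP2, HIP1, CBR4, PRDM1, PDE4DIP, JCAD, PIK3R3, TMED3, RAB27B and ARHGEF3, the last being the 1 gene of 300 kb and more that rose (0.64). On the other side 978 genes under 30 kb rose and 63 fell. Those that fell most among them were the U1 RNA variants RNVU1-6 (-2.28) and RNVU1-3 (-2.11), GRPR, the receptor of gastrin-releasing peptide (-2.11), CAVIN2, a caveolar coat protein (-1.92), and TM4SF18 (-1.72). The short genes that fell also held MYC (-0.91), FGF5 (-1.30), IL7R (-1.21), F3, which starts blood clotting as tissue factor (-1.01), and THBS1, thrombospondin (-0.91). MYC had 8.60, 8.34 and 8.47 in Cis/TM 12 h, against 9.44 and 9.31 in TM 12 h (limma adjusted p = 6.1e-05).

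**Figure D3:**
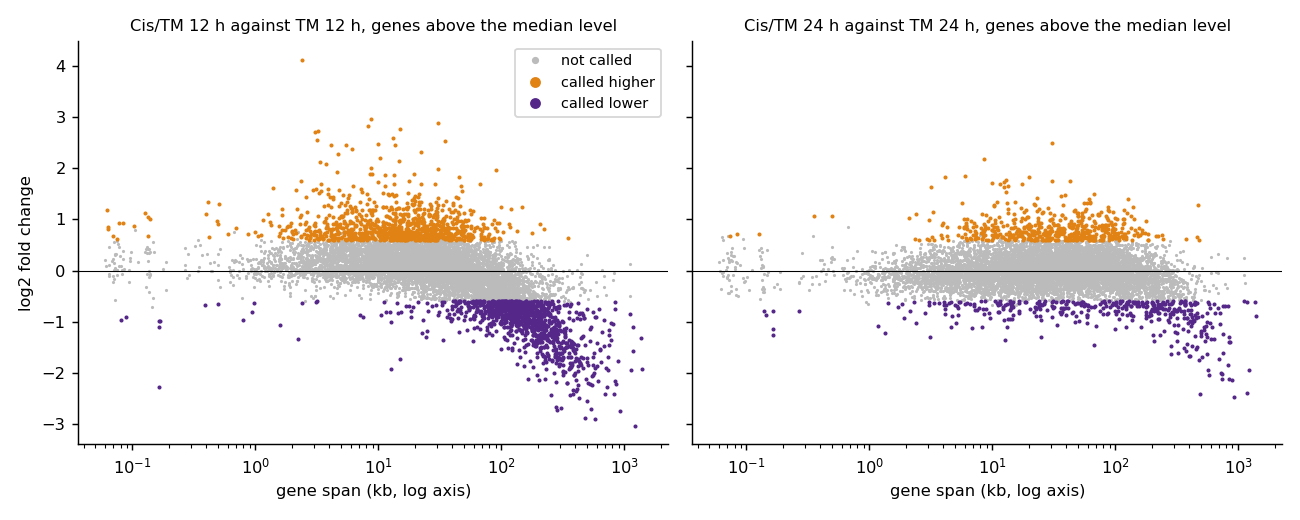
Log2 fold change (vertical axis) against gene span (horizontal axis, kb, log scale) for genes above the median level, for Cis/TM 12 h against TM 12 h (left) and Cis/TM 24 h against TM 24 h (right), 1 point per gene, coloured by call. At 12 h the cloud bends down from about 100 kb, to -3.03 for GPHN at 1230 kb, and at 24 h it bends down only further right.

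The fall of long genes ran through many of the gene lists. The lists were described by counts and were read against 6.61% higher and 6.98% lower over all genes. Of 55 chromatin modifiers, 19 fell and 0 rose, with a median log2 fold change of -0.36 against 0.02 over all genes. They included the histone methyltransferase KMT2C (-1.82), which had 7.13, 6.98 and 7.11 in Cis/TM 12 h and 8.95 and 8.83 in TM 12 h, the demethylases KDM4C (-1.85) and KDM6A (-1.39), the acetyltransferases KAT6B (-1.51) and CREBBP (-1.12), and NCOA2 (-1.68). The 19 that fell had a median span of 178 kb and the other 36 one of 69.8 kb, and 19 of the 29 members of 100 kb and more fell, against none of the 26 shorter ones.

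Of 14 genes of cohesin, the ring that holds sister chromatids together, 6 fell and 0 rose. STAG1 had 7.08, 7.02 and 7.18 in Cis/TM 12 h, against 9.51 and 9.31 in TM 12 h (-2.32, limma adjusted p = 1.4e-08). PDS5B (-1.37), STAG2 (-1.15), the loader NIPBL (-0.98), PDS5A (-0.78) and HDAC8 (-0.70) followed. These were the 6 members of 100 kb and more. CDCA5, sororin, a short gene that stabilises cohesin, had 8.46, 8.10 and 8.20 in Cis/TM 12 h and 7.95 and 7.90 in TM 12 h (0.33, limma adjusted p = 0.446), and was not called.

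DNA repair genes split less fully by span than cohesin. Of 29 genes of homologous recombination and crosslink repair, the pathways that deal with platinum crosslinks, 6 fell and 0 rose: RAD51B (-1.29), the helicase BRIP1 (-1.21), FANCC (-1.19), XRCC2 (-0.80), BLM (-0.78) and MRE11 (-0.74). BRIP1 had 8.47, 8.59 and 8.66 in Cis/TM 12 h and 9.80 and 9.75 in TM 12 h. The median span of these 6 was 142 kb, against 39.3 kb for the other 23, but only 3 of the 6 members of 100 kb and more fell. Of 20 damage checkpoint genes 1 fell, TOPBP1 (-0.67, 61.7 kb), and 0 of the 3 members of 100 kb and more did. Of 12 genes of translesion synthesis, 4 fell, among them REV3L, the catalytic subunit of polymerase zeta (-1.14), and RAD18 (-0.98), and 1 rose (POLI, 0.96). Of 24 nucleotide excision repair genes, 4 rose, namely the damage sensors DDB2 (0.78) and XPC (0.71), XAB2 (0.76) and CETN2 (0.68), and MNAT1 fell (-1.34, 235 kb). Without TM 12 h replicate A, XRCC2, POLQ and XAB2 were no longer called, and XRCC2 was also not called without replicate B.

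Of 24 G1/S cyclins, CDKs and E2F genes 3 rose, 4 fell and 17 were not called. CCNE1, cyclin E1, had 8.59, 8.56 and 8.49 in Cis/TM 12 h, against 7.06 and 7.10 in TM 12 h (1.47, limma adjusted p = 8.8e-07), and CCNE2 (0.71) and E2F1 (0.67) also rose. CDK6 had 7.15, 6.63 and 6.89 in Cis/TM 12 h and 8.77 and 8.59 in TM 12 h (-1.79), and the pocket proteins RB1 (-0.97) and RBL1 (-0.99) fell. The 4 members that fell had a median span of 192 kb, and the 3 that rose one of 12.3 kb. Of 42 replication genes 5 fell, led by PRIM2 (-1.86) and POLA1 (-1.72), subunits of the primase complex. Of 36 genes of mitosis 7 fell and 0 rose, among them the kinetochore proteins CENPE (-0.89) and CENPF (-0.89) and the checkpoint kinase BUB1B (-0.88), none of them of 100 kb or more. MKI67, the proliferation marker, had 9.88, 9.79 and 9.85 in Cis/TM 12 h and 9.90 and 9.77 in TM 12 h (0.01 ± 0.10, SE, limma adjusted p = 0.989).

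Some brakes on the cell cycle and some genes of cell death rose, while most members of these lists were not called. Of 9 CDK inhibitors and GADD45 genes 3 rose (CDKN1A, GADD45A and GADD45B, the last by 1.57) and 0 fell. CDKN1A, the cyclin-dependent kinase inhibitor p21, had 7.94, 7.67 and 7.74 in Cis/TM 12 h, against 6.61 and 6.47 in TM 12 h (1.25 ± 0.16, SE, limma adjusted p = 6.7e-06). GADD45A, a stress sensor, had 8.53, 8.32 and 8.53 in Cis/TM 12 h and 6.92 and 6.82 in TM 12 h (1.59). PMAIP1, the BH3-only death protein NOXA, had 10.41, 10.34 and 10.43 in Cis/TM 12 h and 9.08 and 8.92 in TM 12 h (1.39). The arrays of both groups did not overlap in any of these 3 genes, which largely follows from their calls and is no separate support. Of 20 members of the BCL2 family, 3 rose (PMAIP1 among them) and 2 fell: the death-promoting BCL2L11 (BIM) rose by 1.56 and the survival gene BCL2A1 by 2.20, while the survival genes BCL2L1 (-0.89) and BCL2 (-0.76) fell. The death-promoting BAX (-0.13) and BBC3 (0.41) did not pass the test. Of 27 death receptors, caspases and inhibitors of apoptosis, 3 rose (TNFRSF10D, CASP4 and CASP6), 0 fell and 24 were not called. These 3 are 11.1% of the list, against 6.61% over all genes, and its median log2 fold change was 0.05.

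Immediate early transcription factors, which are switched on within minutes of a signal, mostly moved upwards where they were called: 12 of 30 rose and 1, MYC, fell. FOS had 7.98, 7.42 and 7.76 in Cis/TM 12 h, against 6.05 and 6.28 in TM 12 h (1.56, limma adjusted p = 4.3e-05), ATF3 had 6.82, 6.59 and 6.60 in Cis/TM 12 h and 5.48 and 5.33 in TM 12 h (1.26), and JUN had 8.36, 8.11 and 8.33 in Cis/TM 12 h and 7.20 and 7.19 in TM 12 h (1.07). In each of these the groups did not overlap, which again largely follows from the call. NR4A3 (1.0), IER2 (0.95), FOSB (0.91), KLF4 (0.86) and JUNB (0.65) rose too. EGR1, already at 9.89 on average in TM 12 h, was at 9.98 in Cis/TM 12 h (0.09). A list of 23 factors and markers of epithelial-mesenchymal transition had 5 genes that rose and 3 that fell. The zinc finger repressors of epithelial genes SNAI1 (2.20) and SNAI2 (0.86) rose, whereas the long ZEB1 (-0.93, 211 kb) and ZEB2 (-0.76, 136 kb) fell. Epithelial genes of the same list also rose, namely CLDN4 (0.59), CLDN7 (0.66) and KRT19 (0.59), while TJP1 fell (-0.71). CDH1 (0.06) and VIM (0.01) were not called.

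The promoters of FOS, FOSB, NR4A3 and RGS2 are shown because these genes rose together and each holds the core of the cAMP response element, TGACGT on either strand, in capitals. They run from 250 bases before to 50 after the transcription start (RefSeq, GRCh38.p14, all on the + strand): FOS at chr14:75278578-75278877, FOSB at chr19:45467746-45468045, NR4A3 at chr9:99821635-99821934 and RGS2 at chr1:192808789-192809088.
FOS: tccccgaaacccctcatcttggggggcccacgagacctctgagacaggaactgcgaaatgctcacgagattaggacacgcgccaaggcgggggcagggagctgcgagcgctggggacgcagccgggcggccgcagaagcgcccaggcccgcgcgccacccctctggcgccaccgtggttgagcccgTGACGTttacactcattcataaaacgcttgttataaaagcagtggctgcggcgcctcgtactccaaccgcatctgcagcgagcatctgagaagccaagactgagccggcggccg
FOSB: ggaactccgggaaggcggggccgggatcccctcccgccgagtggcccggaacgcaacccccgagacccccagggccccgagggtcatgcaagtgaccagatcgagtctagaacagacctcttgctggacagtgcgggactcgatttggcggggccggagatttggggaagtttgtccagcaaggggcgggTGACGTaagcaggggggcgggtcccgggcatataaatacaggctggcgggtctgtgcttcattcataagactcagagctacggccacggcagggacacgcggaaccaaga
NR4A3: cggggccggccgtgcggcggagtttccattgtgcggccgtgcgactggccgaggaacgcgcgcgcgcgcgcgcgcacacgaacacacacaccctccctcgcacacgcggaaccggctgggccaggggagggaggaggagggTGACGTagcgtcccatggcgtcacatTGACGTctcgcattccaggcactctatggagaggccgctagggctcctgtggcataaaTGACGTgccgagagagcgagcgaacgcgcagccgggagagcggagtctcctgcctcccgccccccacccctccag
RGS2: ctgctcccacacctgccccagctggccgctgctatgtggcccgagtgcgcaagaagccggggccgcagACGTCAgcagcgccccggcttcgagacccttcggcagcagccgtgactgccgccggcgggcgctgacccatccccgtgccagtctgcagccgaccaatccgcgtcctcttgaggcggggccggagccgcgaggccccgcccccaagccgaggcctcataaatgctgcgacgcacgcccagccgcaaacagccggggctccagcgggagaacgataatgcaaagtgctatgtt
The core begins 64 bases before the start in FOS, 60 bases before it in FOSB, 182 bases before it in RGS2, and at 3 places in NR4A3. Promoters were matched for 14239 of the genes tested, and 9.77% of them held TGACGT. The share was 14% of 965 promoters of genes called higher, 17.0% of the 235 that rose over 2-fold and 10.3% of 1079 promoters of genes called lower. Of 10 matched promoters of immediate early genes that rose, 4 held it, and RGS2 is not on that list. Of the other motifs searched on both strands, TATAAA was in 3 of these 10 and 9.0% of all promoters, CACGTG in 2 of the 10 and 8.88% of all, and CCAAT in 4 of the 10 and 36.3% of all. CCAAT was in 41.2% of the promoters of genes called higher, TATAAA in 7.56% and CACGTG in 8.81%. The printed motif was chosen after the values were seen, and a match describes the letters and not a bound site.

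Lists of inflammation and stress had smaller shares of calls than the immediate early genes. Of 36 NF-kB targets and cytokines 6 rose, with MMP1 (1.14), IL6 (1.02), the NF-kB inhibitor TNFAIP3 (0.84) and NFKBIZ (0.85) after CXCL8, and NFKB1 itself fell (-0.73, 116 kb). Of 32 interferon-stimulated genes 6 rose, led by the transcription factors IRF1 (1.21) and IRF9 (0.93), and RIGI fell (-0.86). Of 36 genes of the integrated stress response, 4 rose and 3 fell, near the shares over all genes, with a median log2 fold change of -0.11, and DDIT3, the CHOP transcription factor, had 7.87, 7.47 and 7.80 in Cis/TM 12 h and 6.15 and 6.10 in TM 12 h (1.59). Of 32 heat shock proteins 6 rose, led by HSPA2 (1.54) and DNAJB9 (1.07).

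Of 15 EGFR ligands and receptors 3 fell and 1 rose, and of 32 ID and TGF-beta/BMP genes 8 fell and 4 rose. EGFR had 7.56, 7.15 and 7.39 in Cis/TM 12 h, against 8.75 and 8.68 in TM 12 h (-1.35, limma adjusted p = 9.2e-07), and NRG1 fell by 1.94 on the log2 scale, whereas the short EGFR ligand HBEGF rose (0.98). TGFB2 (-1.53), TGFBR3 (-1.68) and BMPR1B (-1.82) fell and TGFBR1 rose (0.80). Of 77 axon guidance genes 11 fell, all of 100 kb and more, and 1 rose (EFNB2, 1.27). Beside both semaphorins these were ROBO1 (-1.57), its ligand SLIT2 (-1.50), their partners SRGAP1 (-1.98) and SRGAP2 (-1.75), EPHA3 (-1.94), EFNA5 (-1.73), PLXNA2 (-1.49), NRP1 (-1.09) and ABLIM1 (-0.66). Of 101 Golgi glycosyltransferases 12 fell and 3 rose, and the fucosyltransferase FUT8 (-1.54), the branching enzyme MGAT5 (-1.50) and EXT1, which polymerises heparan sulfate (-1.40), were among those that fell. Of 77 integrins, laminins and collagens, 3 fell and 0 rose. Of them 37 were of 100 kb and more, and 55 of the 77 lay under the array median in TM 12 h.

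Copper genes changed in small numbers each way: of 19 transporters and chaperones 3 rose and 2 fell. ATP7A had 6.32, 6.41 and 6.44 in Cis/TM 12 h, against 7.50 and 7.55 in TM 12 h (-1.14 ± 0.18, SE, limma adjusted p = 6.6e-05), and its span is 140 kb. COMMD1, a copper trafficking protein, fell by 1.02 on the log2 scale (248 kb). The copper chaperones CCS (0.76), SCO1 (0.66) and ATOX1 (0.61) rose, and the calls of CCS and SCO1 ended without 1 of the TM 12 h arrays (replicate B for CCS, replicate A for SCO1). ATP7B, under the array median in both groups, had 3.94, 4.23 and 3.80 in Cis/TM 12 h and 4.30 and 4.35 in TM 12 h (-0.34, limma adjusted p = 0.254). SLC31A1, the uptake transporter, had 11.11, 11.13 and 11.05 in Cis/TM 12 h and 10.91 and 10.93 in TM 12 h (0.18, limma adjusted p = 0.195). At 24 h ATP7A was not lower (0.45, limma adjusted p = 0.065), and the difference between the times passed the test (1.59, limma adjusted p = 2.8e-04). The drug efflux pumps ABCC1 (-1.68, 194 kb) and ABCC4 (-1.53, 282 kb) fell. Of 46 genes of glutathione, thioredoxin and NRF2, 11 rose and 2 fell. GSTM3 had 8.87, 8.74 and 8.83 in Cis/TM 12 h and 7.47 and 7.46 in TM 12 h (1.35), and GPX3 (1.19), SRXN1 (1.18), GPX4 (0.77) and HMOX1 (0.67) rose, whereas SLC7A11, the cystine importer, fell (-0.69).

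Histone genes and small RNAs moved in both directions. Of 57 replication-dependent histone genes 13 rose and 3 fell, led by H2BC12, which had 9.83, 10.01 and 9.87 in Cis/TM 12 h and 7.95 and 8.10 in TM 12 h (1.88), and whose gene model spans 8.57 kb against a median of 0.487 kb for the 13. Of 23 spliceosomal RNAs 8 fell and 1 rose. RNVU1-6 had 5.78, 5.42 and 5.48 in Cis/TM 12 h, against 8.21 and 7.48 in TM 12 h, and RNVU1-3 (-2.11) and RNVU1-4 (-1.71) followed. Of 192 small nucleolar RNAs 21 rose and 2 fell. Histone genes and U1 variants have near-identical copies that share probes, so single members are uncertain. Of 33 RNA polymerase subunits and general factors 3 rose and 4 fell, and of 37 genes of elongation control and Mediator 5 rose and 3 fell. POLR2A, which carries the catalytic centre of RNA polymerase II, rose by 1.04. GTF2F2 (-1.43), POLR3B (-1.11), POLR1B (-0.85) and POLR1A (-0.77) fell. HEXIM1, an inhibitor of the elongation factor P-TEFb, rose by 1.27. HEXIM1 had 9.56, 9.61 and 9.57 in Cis/TM 12 h and 8.31 and 8.30 in TM 12 h. MED13L (-1.84, 319 kb), CDK19 (-1.39, 206 kb) and CDK12 (-0.75) fell.

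**Figure D4:**
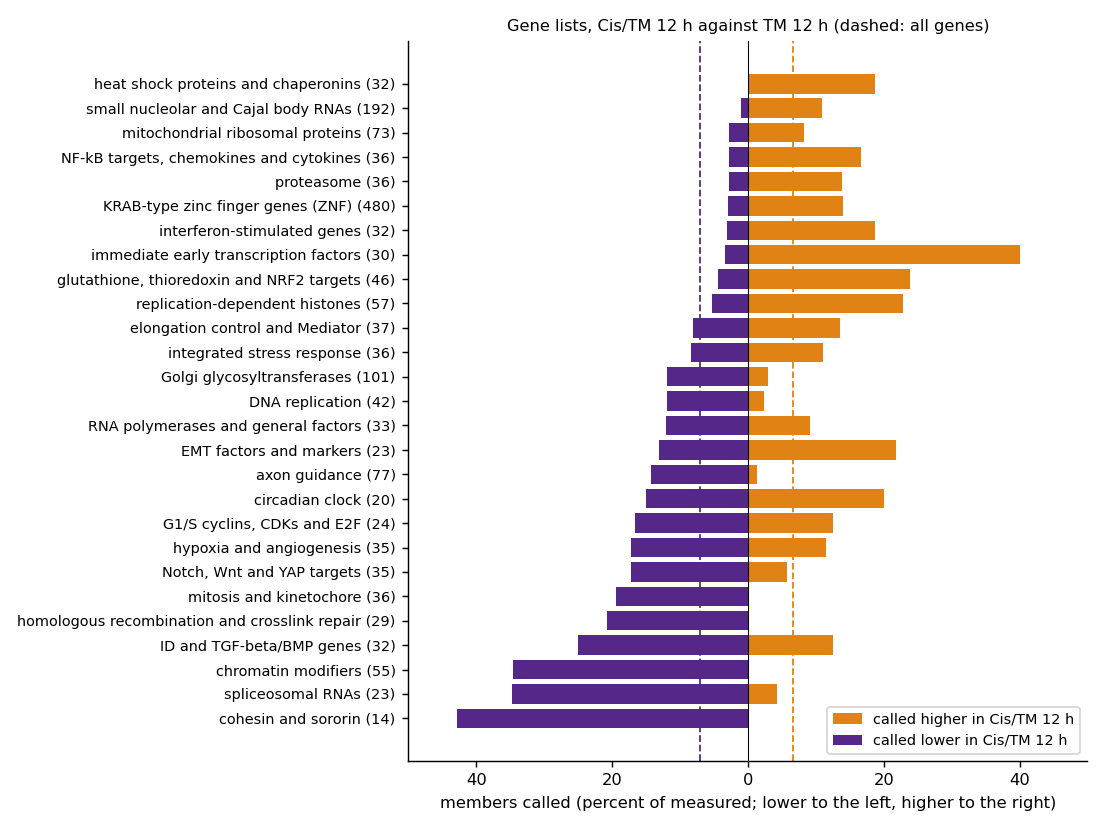
Percent of measured members called (horizontal axis, lower to the left and higher to the right) in lists with 6 or more calls in Cis/TM 12 h against TM 12 h, with the number of measured members in brackets and dashed lines at 6.61% higher and 6.98% lower over all genes. Among the lists drawn (1 list was left out), the immediate early genes (12 of 30) reach furthest right and cohesin (6 of 14), spliceosomal RNAs (8 of 23) and chromatin modifiers (19 of 55) furthest left.

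Fewer genes were called at 24 h. At 24 h, 650 genes were higher in Cis/TM than in TM (3.53%) and 506 were lower (2.75%). Of the genes higher at 12 h, 278 were also higher at 24 h, which is 22.8% of the 12 h genes and 42.8% of the 24 h genes, and 3 were lower. Of the genes lower at 12 h, 324 were also lower at 24 h, which is 25.2% of the 12 h and 64.0% of the 24 h genes, and 8 were higher. The 12 h and 24 h comparisons share no arrays, and Pearson's r between their log2 fold changes was 0.47 across the 18417 genes.

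The difference between the times was tested itself. The effect of adding cisplatin was higher at 24 h than at 12 h for 986 genes (5.35%) and lower for 742 (4.03%). Without TM 12 h replicate A these counts were 593 and 427, and without TM 12 h replicate B 410 were lower. With each array centred on its median they were 1220 higher and 466 lower. Of the genes lower at 12 h, the fall was smaller at 24 h for 666, and of those higher at 12 h the rise was smaller for 452. The 12 h arrays entered both the choice of these genes and the difference.

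The share of long genes still called lower at 24 h differed by span class, as a description. The share with a smaller fall by the test of the difference differed less between genes of 100 to 300 kb and those of 300 kb and more. Of the 745 genes of 100 to 300 kb that were lower at 12 h, 113 (15.2%) were also lower at 24 h and 430 had a smaller fall. Of the 253 genes of 300 kb and more, 152 (60.1%) were also lower at 24 h and 129 had a smaller fall. Above the median level, the fall was smaller for 412 of 681 genes of 100 to 300 kb and 116 of 178 genes of 300 kb and more. Of the 84 genes of 500 kb and more, 66 (78.6%) were also lower at 24 h and 32 had a smaller fall. Among genes above the median level, 7.81% of those of 100 to 300 kb and 50.7% of those of 300 kb and more were lower at 24 h. DIAPH2 (920 kb) was at -2.74 on the log2 scale at 12 h and -2.47 at 24 h. GPHN was at -3.03 and then -1.94. DOCK10 (277 kb), by contrast, was at -2.67 at 12 h and -0.57 at 24 h, and ARHGAP42 (307 kb) at -2.69 and -0.51. The rank correlation of span with log2 fold change was -0.57 at 12 h and -0.05 at 24 h over the 9200 genes above the median level.

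Genes with the largest differences between the times, beside ARHGAP42 (2.18), DOCK10 (2.10) and DIAPH3 (1.98), were KLHL4 (2.32) and ANKFN1 (2.20). ANKFN1 fell at 12 h (-0.93) and rose at 24 h (1.28). Those whose effect was most reduced at 24 h were ID2, with log2 fold changes of 4.12 at 12 h and 1.11 at 24 h, SNAI1 (2.20 and -0.01), RGS2 (2.73 and 0.53), TNFSF15, a TNF family cytokine (2.21 and -0.02), and CST4, a secreted cystatin (1.70 and -0.39). Of the 12 genes that rose most, 10 had a smaller rise at 24 h by the test of the difference, and SLFN5 (2.88 and 2.5) and CTSV (2.48 and 1.71) did not. Among the cell cycle and death genes, CDKN1A (0.81) and CCNG2 (1.77) were also higher at 24 h, whereas GADD45A (0.35) and PMAIP1 (-0.07) were not called.

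Cisplatin alone, set against Control, gave 2718 genes higher (14.8%) and 1983 lower (10.8%) at 12 h. Of the genes higher in Cis/TM 12 h than in TM 12 h, 894 (73.4%) were also higher with cisplatin alone and 5 were lower. Of those lower, 1003 (78.0%) were also lower and 4 were higher. The 2 comparisons share no arrays, and Pearson's r across genes was 0.73. The fall of long genes stood in both: 39.1% of the genes of 100 to 300 kb were lower in Cis 12 h than in Control.

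The effect of cisplatin with TM differed from that without TM for a part of the genes. It was higher with TM for 631 genes (3.43%) and lower for 1266 (6.87%). Other scalings gave another split: 965 higher and 876 lower after centring the arrays on their medians, and 795 and 924 after quantile normalization. The standard deviation over genes was 2.01 to 2.03 in the Control arrays, below that of the 5 arrays of this comparison. Without TM 12 h replicate A the counts were 328 higher and 711 lower, without replicate B 294 and 830.

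Some genes were lower in TM 12 h than in Cis/TM 12 h, Cis 12 h and Control. TXNIP had 11.34, 11.28 and 11.18 in Cis/TM 12 h, against 8.76 and 8.85 in TM 12 h, and averaged 11.22 ± 0.07 in Cis 12 h and 10.71 ± 0.06 in Control (SD, n = 3 each). The cisplatin effect was larger with TM by 1.95 on the log2 scale (limma adjusted p = 3.5e-07). Its relative ARRDC4 had 7.53, 7.35 and 7.29 in Cis/TM 12 h and 4.97 and 4.63 in TM 12 h, with means of 7.32 in Cis 12 h and 6.50 in Control (1.77). SLFN5 had 10.27, 10.21 and 10.24 in Cis/TM 12 h and 7.33 and 7.39 in TM 12 h, with 10.18 in Cis 12 h and 9.13 in Control (1.84). CYP1B1, a cytochrome P450 that oxidises oestrogens, had 8.86, 8.79 and 8.82 in Cis/TM 12 h and 7.02 and 6.64 in TM 12 h, with 8.56 in Cis 12 h and 8.81 in Control (2.25). CCNG2, cyclin G2, had 7.96, 8.05 and 8.05 in Cis/TM 12 h and 6.58 and 6.46 in TM 12 h, with 8.10 in Cis 12 h and 8.03 in Control (1.43). In these 5 genes both TM 12 h arrays lay below every array of Cis/TM 12 h, Cis 12 h and Control. The TM 24 h arrays were low as well, with means of 8.81 for TXNIP, 5.16 for ARRDC4, 7.28 for SLFN5, 6.66 for CYP1B1 and 6.74 for CCNG2. DDIT4, a stress-induced inhibitor of mTOR signalling (1.35), TCP11L2 (2.49) and ZNF404 (2.18) had the same sign. TCP11L2 averaged 5.66 in Cis/TM 12 h and 4.88 in TM 12 h, with 5.69 in Cis 12 h and 7.40 in Control. ZNF404 averaged 6.18 in Cis/TM 12 h and 4.94 in TM 12 h, with 5.52 in Cis 12 h and 6.45 in Control. Both were thus lower with cisplatin alone than in Control. KIAA1107 (2.0) was not called in Cis/TM 12 h against TM 12 h (0.04).

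Other genes responded less with TM, where TM 12 h was already above Control. PMAIP1 averaged 9.0 in TM 12 h and 7.74 in Control, and its cisplatin effect was smaller with TM, the difference being -1.40 (limma adjusted p = 3.5e-05). CDKN1A averaged 6.54 in TM 12 h and 5.81 in Control (-0.95), and FOS averaged 6.17 in TM 12 h and 5.17 in Control (-1.29). CDCA5 averaged 8.26 in Cis/TM 12 h and 7.92 in TM 12 h, against 8.14 in Cis 12 h and 5.71 in Control (-2.10). GPX1, the selenium peroxidase (-2.29), TWNK, the mitochondrial helicase (-2.19), the RNase P RNA RPPH1 (-2.09) and TXN2, mitochondrial thioredoxin (-2.05), had the largest negative differences. The glucose transporter SLC2A1 ran the other way round: it had 8.61, 8.28 and 8.45 in Cis/TM 12 h and 9.86 and 9.75 in TM 12 h, with 8.35 in Cis 12 h and 8.42 in Control (-1.28, limma adjusted p = 8.9e-04).

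**Figure D5:**
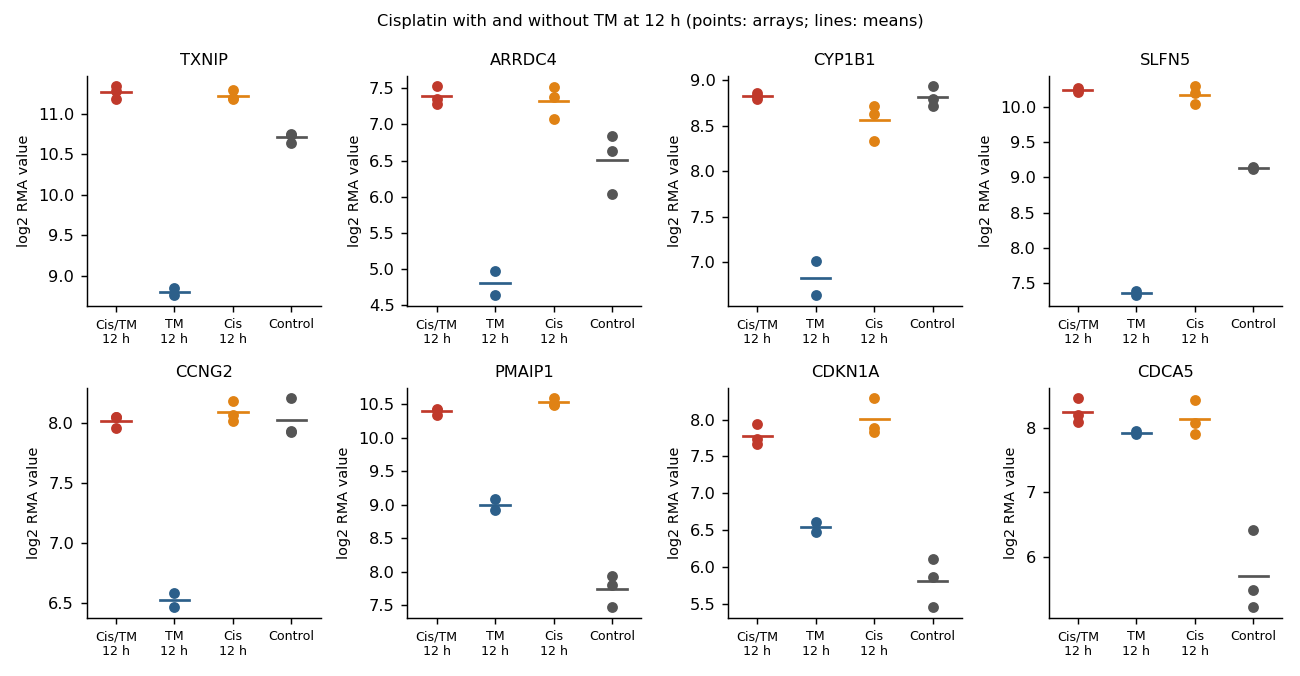
Log2 RMA value (vertical axis) of 8 genes in Cis/TM 12 h, TM 12 h, Cis 12 h and Control, 1 point per array with horizontal lines at the means. TXNIP, ARRDC4, CYP1B1, SLFN5 and CCNG2 are lowest in TM 12 h (TXNIP 8.76 and 8.85), whereas PMAIP1, CDKN1A and CDCA5 are lowest in Control (CDCA5 5.71 on average).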

How the data were processed

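RNA of MDA-MB-231 cells was hybridised to Affymetrix Human Gene 1.0 ST arrays. The deposited values are log2 expression values that the authors made with RMA (background correction, quantile normalization and probe summary), for 33297 transcript clusters on 20 arrays, with all columns matched to array titles and 0 left unmatched. The deposited table holds no other measures. Clusters with 1 gene symbol (19460) were kept, and the one with the highest mean over all arrays stood for each of 18417 genes.

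A linear model over 7 groups and 20 arrays was fitted with limma 3.58.1 in R 4.3.3, with empirical Bayes moderation and Benjamini-Hochberg adjustment over all genes. A call needed a fold change over 1.5 and an adjusted p under 0.05. The step was tested on simulated data. Gene spans and promoters came from RefSeq (GRCh38.p14), and 18386 genes had a span. Array number, and no read depth, limits the precision.

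Named genes were the 12 largest rises and falls among called genes without overlap of arrays (no small RNAs, olfactory receptors or uncharacterised loci), the 5 largest called differences each way between times and with and without TM, up to 4 called members of each list, and a few fixed genes. Other list members in the text, and the exceptions by span, were chosen after their values were seen. Members and lists were chosen with earlier results of these data known. Normalization, filter, threshold, design and leaving out arrays were varied. A withheld item, and 1 gene list that needs it, are not reported here.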

Additional observations from a re-analysis of the deposited data

Results flagged for a closer look

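Each value below is the log2 difference between 2 effects of cisplatin under the same contrast, taken from limma with an adjusted p under 0.05, and each was listed because the effects differed between times or with and without TM. Groups of 2 or 3 arrays were too small for a search for single outlying arrays, so none was made.

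Between the times, 986 genes had a higher effect at 24 h than at 12 h and 742 a lower one. The difference, 24 h minus 12 h, was -3.01 for ID2, -2.23 for TNFSF15, -2.21 for SNAI1, -2.20 for RGS2, -2.09 for CST4 and -0.64 for TXNIP. It was 2.32 for KLHL4, 2.20 for ANKFN1, 2.18 for ARHGAP42, 2.10 for DOCK10, 1.98 for DIAPH3 and 1.59 for the copper exporter ATP7A.

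Between cisplatin with TM and without TM at 12 h, 631 genes had a higher effect with TM and 1266 a lower one. The difference, with minus without TM, was 2.49 for TCP11L2, 2.25 for CYP1B1, 2.18 for ZNF404, 2.02 for ANKFN1, 2.0 for KIAA1107 and 1.95 for TXNIP. It was -2.29 for GPX1, -2.19 for TWNK, -2.10 for CDCA5, -2.09 for RPPH1, -2.05 for TXN2 and -0.95 for CDKN1A.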

How the results depend on the processing

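Over all leave-outs of 1 array the genes called ran from 983 to 1333 higher and 1134 to 1306 lower in Cis/TM 12 h, 479 to 748 and 427 to 574 in Cis/TM 24 h, 593 to 1044 and 410 to 788 for 24 h minus 12 h, and 294 to 770 and 711 to 1514 with minus without TM. Of genes of 100 kb and more, 898 to 999 were lower and 13 to 20 higher, and of genes under 30 kb 43 to 64 were lower and 780 to 1067 higher. Without TM 12 h replicate A the time counts were 593 and 427 and those with minus without TM 328 and 711, and without replicate B 410 had a lower time effect and 294 and 830 differed with TM. Centring arrays on their medians gave 466 genes lower for 24 h minus 12 h and 965 higher with minus without TM, and fitting only the arrays compared gave 399 higher with minus without TM. A test against a fold of 1.5 (treat) left 214 higher and 414 lower at 12 h, 56 and 69 at 24 h, 45 and 35 for the time difference, 9 and 29 with minus without TM, and, by span, 389 lower and 5 higher of 100 kb and more and 9 lower and 176 higher under 30 kb. An adjusted p with no fold minimum gave 2079 and 1980 at 12 h, 1339 and 1142 at 24 h, 149 lower and 1623 higher under 30 kb and 28 higher of 100 kb and more. Array letters did not pair the arrays (median residual correlation of same-letter arrays 0.0083, from -0.42 to 0.61 over 57 pairs; 0.14 for letter A and 0.18 for letter B between Cis/TM 12 h and TM 12 h), and the fit with the letter as a replicate block gave 1238 higher and 1321 lower. Of 3796 alternative values for single genes, 3636 stayed on the same side of the threshold, 155 lost the call (99 of them under treat), 5 gained it and 0 turned direction. The causes were not tested.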
